A study of Caenorhabditis elegans with 18 samples.

Results

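Sperm transcripts of Caenorhabditis elegans were followed through 3 stages in 2 strains. The genes described are those whose array annotation names them msp (major sperm protein), msd or ssp (small sperm proteins related to it) or spe (defective in spermatogenesis), together with gsp-3, gsp-4 and fer-1. Each was read from a probe set that names no other gene, and from the one with the highest mean over the arrays where there were several. This gave 65 genes of the 17118 genes read in this way: 23 msp, 29 spe, 8 ssp, 2 msd and 2 gsp genes and fer-1. The strains were the wild type N2 and lin-35(n745), a null mutant of the worm counterpart of the retinoblastoma protein, a repressor of transcription. Both were grown at 20 °C on NGM plates with the bacterium OP50 and carried no transgene or further allele by the labels. Embryos, synchronized first-stage larvae (L1) and synchronized fourth-stage larvae (L4) were collected, with 3 independently grown samples for each of the 6 groups, and the larvae were hermaphrodites. Whole animals were used, so every value mixes all tissues, and fewer cells of a type and less RNA per cell cannot be told apart.

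A hermaphrodite of this species makes sperm in the late larval gonad and then switches to oocytes. Major sperm protein is both the cytoskeletal protein that drives the crawling of the sperm and, once released, the signal that makes oocytes mature and the gonad sheath contract. Many near-identical msp genes encode it, in clusters on chromosomes II and IV. The spe genes were found through sterile mutants and act at different steps, from the transcription programme of spermatocytes through the budding and activation of spermatids to fertilization itself. The pocket protein LIN-35 acts with E2F and DP factors at many promoters and is known for keeping germline genes off in somatic cells.

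Of the 23 msp genes, 13 lay on chromosome II and 10 on chromosome IV. Within 5 protein-coding genes on either side, 15 of the 23 had another gene of these sperm gene families as a neighbour, and 14 of them had an msp gene. Only 1 of the 29 spe genes, spe-55, had such a neighbour. These counts include neighbours that are not among the genes described here. All 23 msp genes were read by probe sets that Affymetrix marks as able to hybridise to other sequences (suffix x), against 0 of the 29 spe genes. A value given for 1 msp gene can therefore hold signal of its relatives, and the 23 values are not independent of each other. The array named 15 further genes of these families only together with others, among them ssp-9 and msd-1.

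Correlations between arrays of 1 group were 0.9863 to 0.9973, and 0 pairs of arrays held identical values. The highest correlation between arrays of different groups was 0.9917, above the lowest within a group. The lin-35 transcript itself was lower in lin-35(n745) at every stage, with log2 differences of -1.38 in embryos, -1.27 at L1 and -1.25 at L4 and no overlap of the arrays. One array stood apart for the msp genes. Replicate 1 of N2 L1 was the highest of its 3 arrays for 21 of the 23 msp genes, with a class median log2 level of 6.71 against 6.19 and 5.96 on replicates 2 and 3. It was the highest for only 8 of the 29 spe genes and for 4 of the 8 ssp genes. On the same array all 5 measured vitellogenin genes, which encode the yolk proteins of the adult intestine, were highest of the 3 arrays, with a median of 8.24 against 6.06 and 6.17. Of 22 oocyte genes, 18 were also highest there, with a median of 7.15 against 6.43 and 6.54. The counts of sperm genes that use N2 L1, and the L1 strain differences named first, are given with and without it.

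**Figure D1:**
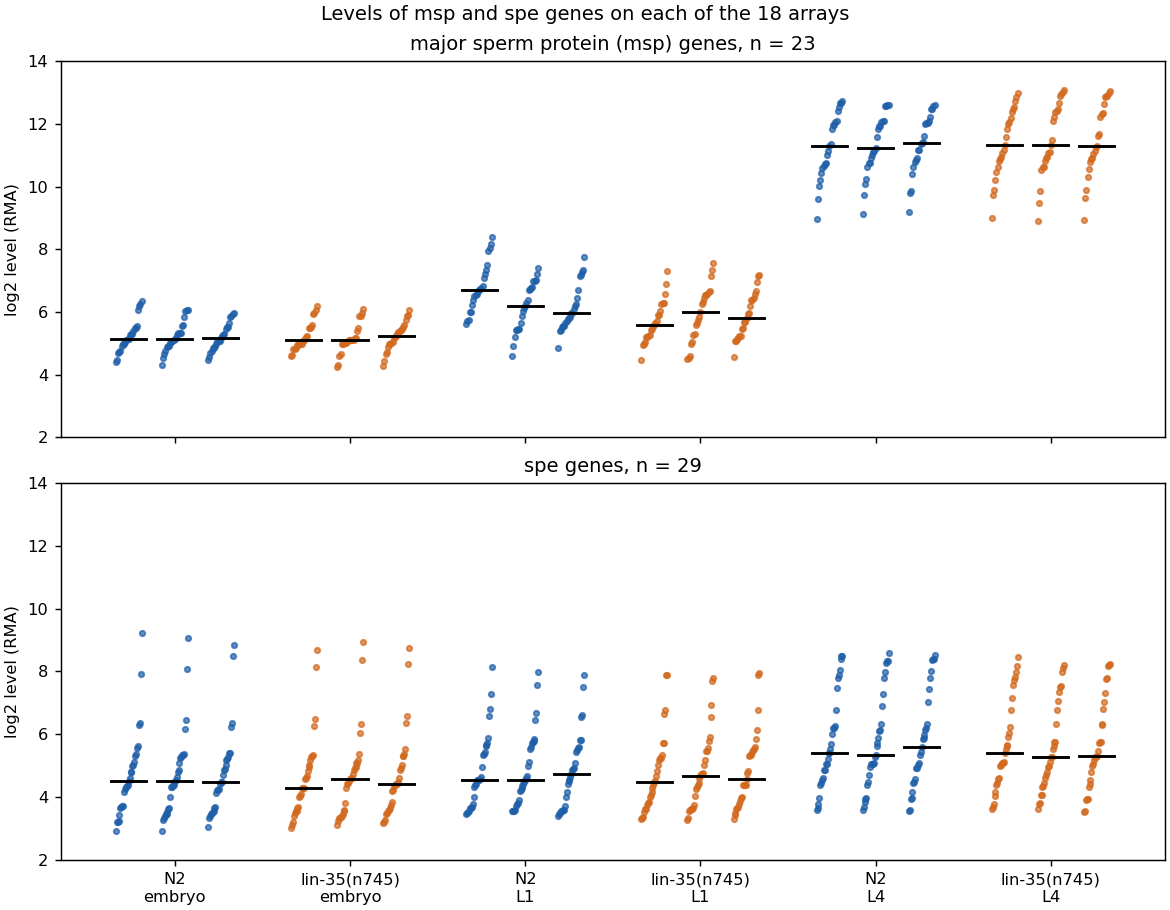
Log2 RMA level of each msp gene (upper panel) and each spe gene (lower panel) on each of the 18 arrays, with 1 column of points per array, replicates 1 to 3 from left to right in each group, points sorted by level and a black line at the median. The msp medians lie between 5.10 and 5.24 in embryos, between 5.57 and 6.71 at L1 and between 11.22 and 11.38 at L4. Levels of different probe sets are not on a common scale.

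The msp genes rose together between L1 and L4. In N2 all 23 were called higher at L4, meaning an adjusted p under 0.05 in the limma fit over all probe sets, and the arrays of the 2 stages did not overlap for any of them, as for 28.4% of all genes in that direction. Their log2 differences ran from 2.85 for msp-32 to 6.18 for msp-78, with a median of 4.91, where the median over all genes was -0.04. The genes msp-78 (72.3-fold), msp-31 (71.8-fold), msp-36 (68.4-fold), msp-38 (66.4-fold) and msp-76 (61.3-fold) rose most. How much background their L1 readings hold is not known, so these folds are uncertain in size. The smallest rises were those of msp-32 (7.20-fold), msp-74 (11.4-fold), msp-142 (14.9-fold), msp-3 (18.5-fold) and msp-33 (4.25 on the log2 scale).

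Taking msp-78 as an example, its log2 level on the N2 arrays was 7.21, 6.19 and 5.76 at L1 and 12.66, 12.55 and 12.47 at L4. For msp-142, near the other end, it was 5.99, 5.46 and 5.98 at L1 and 9.59, 9.74 and 9.78 at L4. In both genes every L4 array lay far above every L1 array, and the spread at L1 was wider than at L4 for msp-78. Only msp-32 of the msp genes had a second probe set of its own, one without the cross-hybridisation mark. That probe set differed by 0.23 between N2 L1 and L4 (adjusted p = 0.0936), against 2.85 on the probe set used, so the rise of msp-32 was not seen on both. The 7 probe sets that name several msp genes and no other gene all rose, by 4.72 to 6.05.

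The other classes rose from L1 to L4 as well, over a wide range. Over all 65 genes, 58 were higher in N2 (89.2%), 0 were lower and 7 were not called, where 22.7% of all genes were higher and 23.2% lower. The sperm phosphatases gsp-3 and gsp-4, catalytic subunits of the PP1 type, rose by 4.46 and 3.64 on the log2 scale. On the N2 arrays gsp-3 read 4.94, 4.89 and 4.31 at L1 and 9.18, 9.19 and 9.16 at L4, with no overlap. The small sperm proteins msd-2 and msd-4 rose by 3.61 and 3.85 on the log2 scale, and all 8 ssp genes rose, by 0.45 to 3.70. ssp-9 and msd-1 could be read only on shared probe sets. The one of ssp-9 and ssp-11 rose by 3.44. Of those that name msd-1, the one shared with msd-3 rose by 4.20. The one shared with msd-2 and msd-3 rose by 0.97.

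Among the spe genes 22 of 29 were higher at L4 than at L1 in N2, with a median difference of 0.51. The largest rises were those of spe-44 (13.0-fold), spe-46 (11.4-fold), spe-18 (6.51-fold), spe-11 (6.41-fold) and spe-4 (3.17-fold), though a fold over a reading near background is uncertain in size. spe-44 encodes a SAND-domain factor that switches on the spermatocyte programme, spe-11 a sperm-supplied protein needed by the embryo, and spe-4 a presenilin of the sperm's membranous organelles. On the N2 arrays spe-11 read 3.46, 3.81 and 3.57 at L1 and 6.25, 6.32 and 6.31 at L4. Every L4 array was above every L1 array for this gene, but its L1 readings lie in a range where signal and background cannot be separated, so its fold may be understated.

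The 7 genes not called in N2 were all spe genes. They were spe-40, spe-36, spe-12, spe-49, spe-43, spe-51 and spe-15, with differences from -0.01 to 0.27. By their known roles, spe-12 and spe-43 belong to the pathway that activates spermatids, and spe-36, spe-49 and spe-51 are needed at fertilization. spe-15 encodes a myosin VI that sorts material during budding. The deposited values come without detection calls, and a low one such as that of spe-36 (3.66, 3.53 and 3.53 at L1 and 3.77, 3.58 and 3.53 at L4) is not separable from background. The arrays of both stages overlapped for spe-36.

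Further genes were followed for their known role. spe-9, which encodes an EGF-repeat protein of the sperm surface needed for fertilization, and spe-38, a four-pass membrane protein needed at the same step, rose 1.36-fold each. spe-26, a kelch-like protein of spermatocytes, rose 1.72-fold. fer-1, a ferlin needed for the fusion of membranous organelles with the sperm surface, rose 2.18-fold. Its N2 arrays read 5.10, 5.10 and 4.86 at L1 and 6.10, 5.95 and 6.37 at L4, without overlap. Without replicate 1 of N2 L1, 57 genes were higher from L1 to L4 and 0 lower.

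In lin-35(n745) the same step gave 57 higher and 0 lower genes, where 20.8% of all genes were higher and 23.3% lower, and all 23 msp genes rose, with a median of 5.71. spe-12 was called in this strain only (0.26, adjusted p = 0.0328), and spe-9 (0.11) and spe-48 (0.16) were called in N2 only. The difference between the changes in the 2 strains was itself tested and was called for 0 of these 3 genes.

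**Figure D2:**
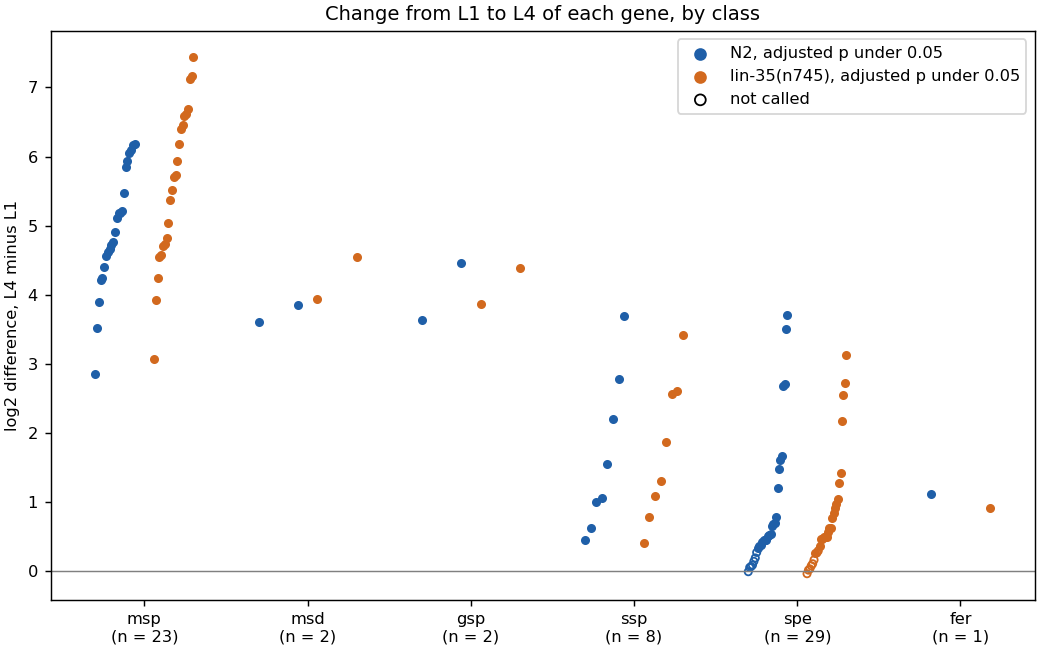
Log2 difference between L4 and L1 (vertical axis) of each of the 65 genes by class, in N2 (blue, left) and lin-35(n745) (orange, right); filled points passed an adjusted p of 0.05 and open points did not. The msp genes lie between 2.85 and 6.18 in N2 and between 3.08 and 7.44 in lin-35(n745), and the open points are spe genes.

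From embryo to L1 the msp genes were already higher in N2. Here 22 of the 23 msp genes were called higher, with a median difference of 1.10 and the largest in msp-19 (2.31). Over all 65 genes 46 were higher (70.8%) and 7 lower (10.8%), where 42.2% of all genes were higher and 32.9% lower. The msp-19 arrays were at 4.92, 4.65 and 4.69 in N2 embryos and reached 7.49, 6.99 and 6.71 at L1, without overlap. Without replicate 1 of N2 L1, 42 genes were higher and 8 lower. Centring every array on its median shifted this step's median over all probe sets from 0.13 to 0.25, and the numbers of genes called to 52 higher and 6 lower. Quantile normalization shifted that median to 0.06 instead, and the numbers to 38 higher and 11 lower.

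The 7 genes that were lower at L1 than in N2 embryos were all spe genes: spe-39 (-1.04), spe-54, spe-48, spe-6, spe-44, spe-5 and spe-46 (-0.36). spe-39 encodes a protein of vesicle traffic that many tissues use, and spe-5 a B subunit of the vacuolar proton pump. On the N2 arrays the embryos gave spe-39 levels of 9.23, 9.06 and 8.85, the L1 larvae 8.15, 7.99 and 7.89 and the L4 larvae 8.50, 8.60 and 8.52. It was thus lowest at L1, with no overlap between stages that follow each other. In lin-35(n745) 35 genes were higher and 5 lower from embryo to L1, where 39% of all genes were higher and 32.1% lower, and 15 of the msp genes were among the higher ones. The strain and stage comparisons share arrays, so their values are set side by side here and not correlated.

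In embryos no gene of the set was called different between the strains. limma called 0 higher and 0 lower, where 6.23% of all genes were higher and 4.12% lower in lin-35(n745), and 2 of the 65 passed an unadjusted p of 0.05. These were spe-39 (-0.26, adjusted p = 0.194) and spe-54 (-0.35, adjusted p = 0.196). The msp differences ran from -0.19 to 0.22. With both strains low, the msp medians per array were 5.14 to 5.18 in N2 and 5.10 to 5.24 in lin-35(n745).

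At L1 part of the msp class was lower in lin-35(n745). Of the 65 genes 12 were called lower (18.5%), where 6.81% of all genes were, and 1 was called higher (1.54%), where 8.72% were. The 12 were 9 msp genes, msd-2, ssp-34 and ssp-35. The msp differences ran from -1.08 for msp-78 to 0.02, 22 of 23 were below 0, and their median was -0.53 against -0.04 over all genes. Over all 17118 genes 9748 differences were below 0. At L1 12 of the 23 msp genes in N2 and 17 in lin-35(n745) had levels below the median of all genes. Without detection calls, how much of these readings is background is not known. By position, 6 of the 10 msp genes on chromosome IV and 3 of the 13 on chromosome II were called, a difference that was not tested. Without replicate 1 of N2 L1 the msp genes still called were msp-19, msp-36, msp-55 and msp-78, all on chromosome IV.

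The N2 arrays of msp-19 read 7.49, 6.99 and 6.71 at L1 and the lin-35(n745) arrays 5.57, 6.54 and 5.94, so that all mutant arrays were lower (-1.05 ± 0.19 SE, adjusted p = 0.000486). For msp-78 they read 7.21, 6.19 and 5.76 in N2 and 5.25, 5.59 and 5.09 in the mutant, a difference of -1.08 ± 0.24 (adjusted p = 0.0032). msd-2, a small protein with the fold of major sperm protein, read 6.30, 6.10 and 6.16 in N2 and 4.84, 5.48 and 5.38 in lin-35(n745). Its difference of -0.95 ± 0.14 (adjusted p = 6.73e-05) had the smallest p of the set. A probe set that names msd-2 together with msd-1 and msd-3 differed by -0.05 (adjusted p = 0.866), so the difference was not seen on both. The probe set of msd-1 and msd-3, which does not name msd-2, was lower (-0.63, adjusted p = 0.00351). On the probe sets used, all with the x mark, none of msp-19, msp-78 and msd-2 overlapped between the strains. In embryos the msd-2 arrays had read 5.50, 5.32 and 5.37 in N2, so the level of the mutant at L1 lay near that of N2 embryos.

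The other genes called lower were msp-36 (-0.88), msp-55 (-0.87), msp-76 (-0.69), msp-77 (-0.64), msp-74 (-0.56), msp-33 (-0.56), ssp-35 (-0.49), msp-32 (-0.48) and ssp-34 (-0.30). The arrays of the strains overlapped for msp-76, msp-77, msp-33 and msp-32. The second probe set of msp-32 differed by -0.14 (adjusted p = 0.44), and its call was lost in 4 of the 6 fits that left out 1 L1 array. ssp-34 lost its call in 6 of the 6. Over all 65 genes, 15 had every mutant array below every N2 array, where 13.8% of all genes did. Of the 7 probe sets that name several msp genes, 6 were lower too, with differences of -1.15 to -0.68, and the other (-0.28, adjusted p = 0.398) was not called. The 1 higher gene, spe-48, read 7.29, 7.57 and 7.50 in N2 and 7.87, 7.80 and 7.93 in lin-35(n745), without overlap (0.42 ± 0.12, adjusted p = 0.0244).

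The number of genes lower at L1 depended on the array that stood apart. Without replicate 1 of N2 L1, 7 genes were lower and 0 higher, 4 of the lower ones msp genes, and the msp median was -0.24. Without replicate 2 of N2 L1, 17 genes were lower, 15 of them msp genes. The 6 genes msd-2, msp-19, msp-36, msp-55, msp-78 and ssp-35 passed whichever of the 6 L1 arrays was left out. Without replicate 1 of N2 L1 the differences were -0.90 for msd-2, -0.83 for msp-19, -0.67 for msp-78, -0.60 for msp-55, -0.49 for msp-36 and -0.44 for ssp-35. A fit to the 6 L1 arrays alone called 3 genes lower, msd-2, msp-19 and ssp-35, and 0 higher. spe-48 lost its call without replicate 1 of N2 L1 (0.33, adjusted p = 0.117).

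Genes of other cell types were read at L1 too, where 6.81% of all genes were lower and 8.72% higher in lin-35(n745). Of 6 measured genes with adult onset, 5 were lower (83.3%), among them vit-4 (-1.92), vit-5 (-1.80), vit-2 (-1.44) and vit-6 (-0.87). The vitellogenin medians ran from 6.06 to 8.24 on the N2 arrays and from 5.05 to 5.61 on the mutant arrays. When replicate 1 of N2 L1 was left out, 4 of the 6 were lower, and the differences were -1.16 for vit-4 (adjusted p = 0.00307), -0.98 for vit-5, -0.85 for vit-2 and -0.52 for vit-6. Of 22 oocyte genes 7 were lower (31.8%) and 4 higher (18.2%), or 5 and 4 without that array. Their array medians were 6.43 to 7.15 in N2 and 6.23 to 6.62 in the mutant. Of 18 genes of the germline of either sex 1 was lower and 9 higher, the same counts as without that array, among them pgl-1 (3.25, or 3.33 without it), which encodes a P granule protein, with medians of 6.46 to 6.79 in N2 and 7.87 to 7.95 in the mutant. The part of any of these in the msp difference was not tested.

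**Figure D3:**
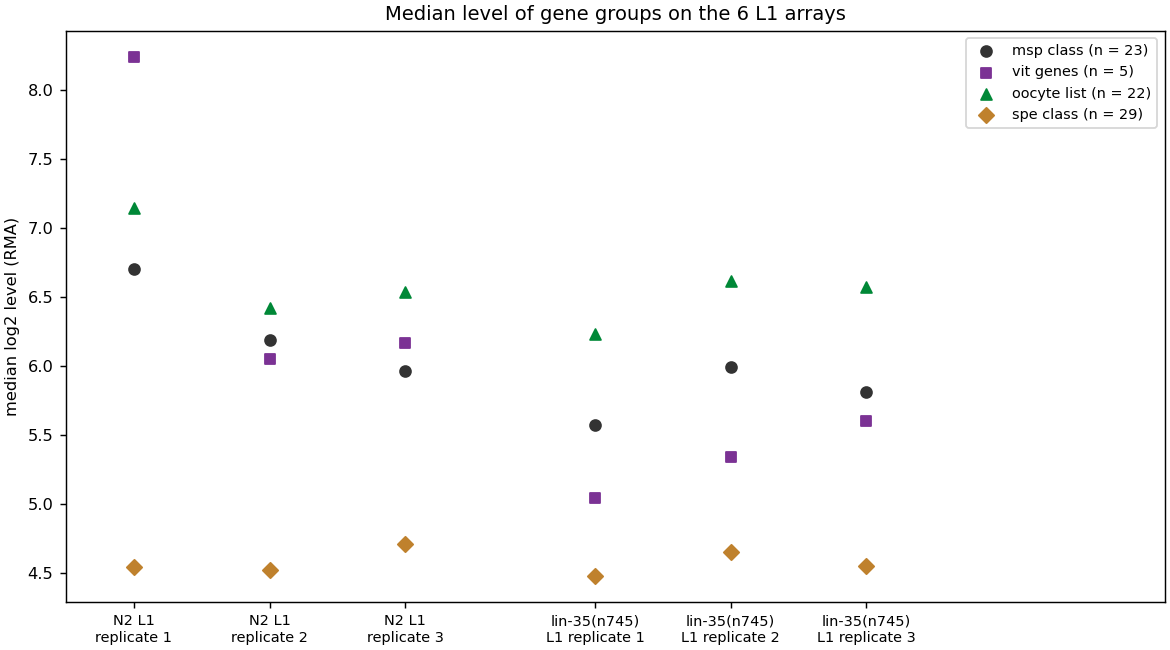
Median log2 RMA level (vertical axis) of the msp class, the vitellogenin (vit) genes, the oocyte list and the spe class on each of the 6 L1 arrays. Replicate 1 of N2 is the highest of the 6 for the msp (6.71), vit (8.24) and oocyte (7.15) medians, and the spe medians lie between 4.48 and 4.71.

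At L4, when the msp genes had risen in both strains, none of the 23 was called different between the strains. Their differences ran from -0.25 for msp-32 to 0.50 for msp-19, with a median of 0.06. For 6 of the 23 msp genes every mutant array lay above every N2 array, where 16.5% of all genes did, and msp-19 was one of them, with 11.97, 11.93 and 12.02 in N2 and 12.38, 12.41 and 12.63 in lin-35(n745) (0.50 ± 0.19, adjusted p = 0.0844). A fit to the 6 L4 arrays alone, with its own smaller estimate of the spread, called 4 msp genes higher: msp-19 (adjusted p = 0.002), msp-53 (0.39, adjusted p = 0.00906), msp-55 (0.35, adjusted p = 0.0103) and msp-59 (0.49, adjusted p = 0.0212).

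The genes called at L4 were instead outside the msp class. Of the 65 genes 7 were lower in lin-35(n745) (10.8%), where 8.11% of all genes were, and 0 were higher, where 8.24% were. The share of lower genes was thus close to that of all genes. The 7 were spe-44, ssp-16, spe-4, spe-55, ssp-10, spe-6 and fer-1. None of them overlapped between the strains. Over all 65 genes, 11 had every mutant array below every N2 array, where 20.5% of all genes did. Among the 42 genes outside the msp class 33 differences were below 0, with a median of -0.12. Over all 17118 genes 9865 were below 0, with a median of -0.03.

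The factor gene spe-44 differed most. Its arrays read 8.49, 8.31 and 8.35 in N2 and 7.57, 7.35 and 7.30 in lin-35(n745), a difference of -0.98 ± 0.16 (adjusted p = 0.000174), or 0.509 times the N2 level. At L1 they had read 4.54, 4.59 and 4.91 in N2 and 4.67, 4.60 and 5.31 in the mutant, with overlap. The gene thus rose between L1 and L4 in both strains, 13.0-fold in N2 and 5.84-fold in lin-35(n745).

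spe-4, the presenilin gene, read 8.05, 8.33 and 8.40 in N2 L4 and 7.82, 7.54 and 7.77 in lin-35(n745) (-0.55 ± 0.14, adjusted p = 0.0102). spe-6, which encodes a kinase of the casein kinase 1 type that acts in meiosis and holds back spermatid activation, read 5.04, 4.96 and 5.09 against 4.60, 4.34 and 4.78 (-0.46 ± 0.13, adjusted p = 0.0169). Both genes act in the spermatocyte or young spermatid. For fer-1 the arrays read 6.10, 5.95 and 6.37 against 5.72, 5.69 and 5.85 (-0.39 ± 0.11, adjusted p = 0.0199).

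Of the ssp genes, ssp-16 read 9.36, 9.33 and 9.47 in N2 L4 and 8.98, 8.66 and 8.80 in lin-35(n745) (-0.57 ± 0.15, adjusted p = 0.0122). ssp-10 was near the threshold, with -0.46 ± 0.15 (adjusted p = 0.0438). spe-55 read 6.20, 6.09 and 6.13 against 5.62, 5.62 and 5.76 (-0.47 ± 0.11, adjusted p = 0.00531). Its second probe set, which names the same gene, differed by -0.01 (adjusted p = 0.989). gsp-3 (-0.22), gsp-4 (-0.16), spe-9 (-0.26), spe-11 (-0.27), spe-39 (-0.26), spe-38 (-0.04) and spe-26 (0.05) were not called.

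Only spe-44 and spe-55 passed whichever of the 6 L4 arrays was left out. Without replicate 3 of N2 L4 2 genes were lower, and without replicate 2 of lin-35(n745) L4 also 2.

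**Figure D4:**
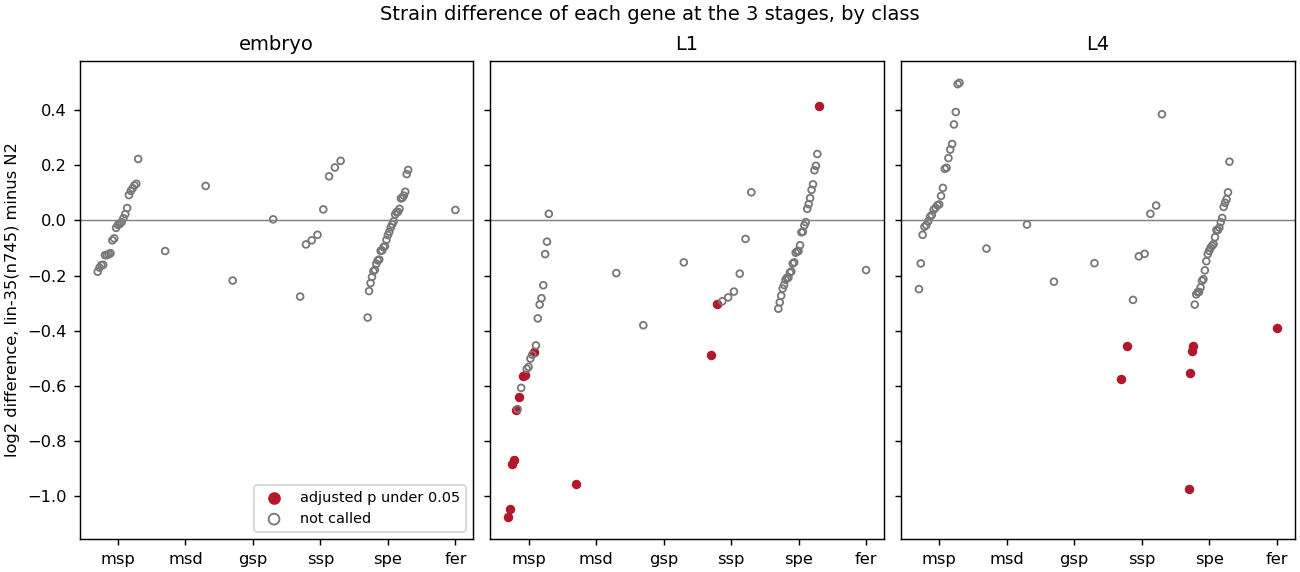
Log2 difference between lin-35(n745) and N2 (vertical axis) of each of the 65 genes by class in embryos, at L1 and at L4; red points passed an adjusted p of 0.05 and open points did not. The red points are 12 lower genes and 1 higher gene at L1 and 7 lower genes at L4, none of the last from the msp class.

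**Figure D5:**
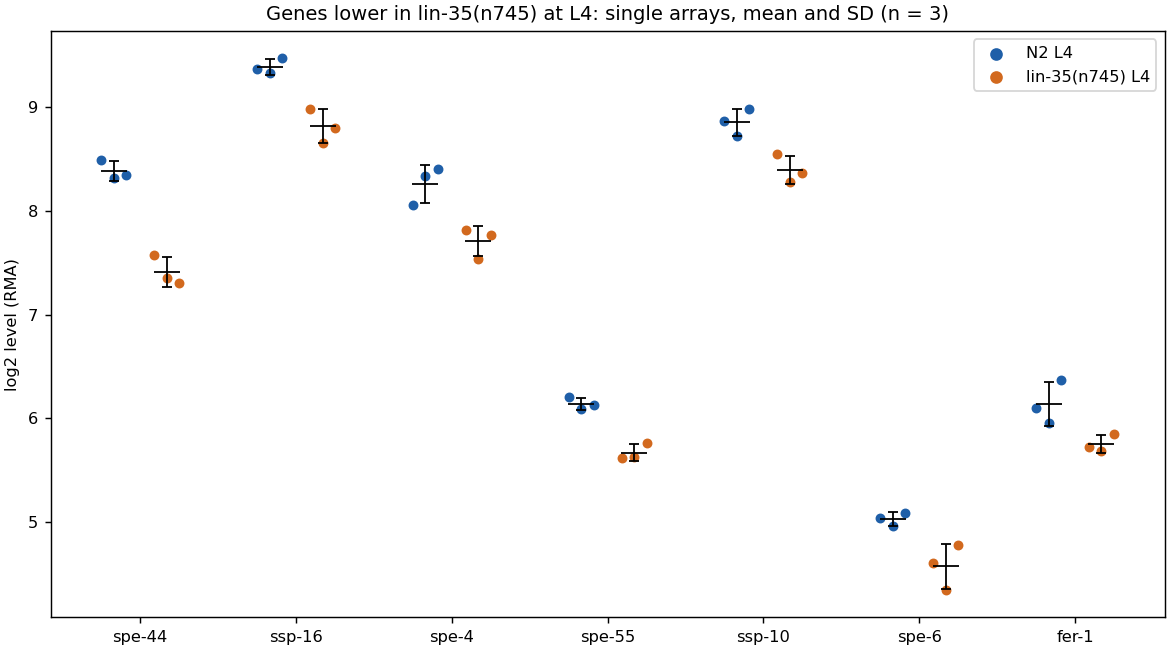
Log2 RMA level (vertical axis) of the 7 genes that were lower in lin-35(n745) at L4, on each N2 (blue) and each lin-35(n745) (orange) array, with the mean and SD of 3 arrays. The arrays of the strains do not overlap for any of the 7, and the gap is widest for spe-44 (-0.98).

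Whether the strain difference changed with stage was tested as an interaction, with the same threshold. Between L1 and L4 it became higher for 6 genes (9.23%), where 3.46% of all genes did so, and lower for 1 (1.54%), where 3.72% did. The 6 were msp-19 (1.54 ± 0.27), msp-78 (1.26), msp-55 (1.22), msp-36 (1.08), msp-53 (1.00) and msd-2 (0.94). For these the mutant was below N2 at L1 and close to it or above at L4. The probe set that msd-2 shares with msd-1 and msd-3 gave 0.055 (adjusted p = 0.936), and the one of msd-1 and msd-3 gave 0.745 (adjusted p = 0.0259). The 1 gene that became lower was spe-44, with -1.16 ± 0.23 (adjusted p = 0.00276). Without replicate 1 of N2 L1, 5 genes became higher, spe-44 still lower (-1.09), and msp-53 lost its call (0.68, adjusted p = 0.104). The count of genes that became higher was 11 without replicate 2 or replicate 3 of N2 L1 and 10 without replicate 2 of lin-35(n745) L1. Of the 12 fits that left out 1 array of these groups, msp-53 lost its call in 8, and msp-36 and msp-78 in 5 each. The count was 3 without replicate 3 of N2 L4 and without replicate 2 or replicate 3 of lin-35(n745) L4.

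Against embryos, the strain difference at L1 was lower for 3 genes (4.62%), where 4.4% of all genes were lower, and higher for 0, where 5.22% were. The share of lower genes was thus close to that of all genes. The 3 were msp-19 (-1.27), msp-78 (-1.21) and msd-2 (-0.84). The count of lower genes was also 3 without replicate 1 of N2 L1, with -1.06 for msp-19, -0.80 for msp-78 and -0.79 for msd-2. With all arrays, the probe set that msd-2 shares with msd-1 and msd-3 gave 0.061 (adjusted p = 0.903). The one of msd-1 and msd-3 gave -0.675 (adjusted p = 0.0361). msp-78 lost this call in 4 of the 12 fits that left out 1 array and in 2 of 8 other alternatives. That count was 7 without replicate 2 of N2 L1, and 6 without replicate 3 of N2 L1 or replicate 2 of lin-35(n745) L1. The difference at L4 against embryos was lower for 2 genes (3.08%), spe-44 (-0.91) and ssp-16 (-0.77), and higher for 0. Of all genes 4.18% were lower and 4.14% higher, so the share of lower genes was not above that of all genes. ssp-16 had an adjusted p of 0.0306 and lost its call in 9 of the 12 such fits.

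Upstream regulators of sperm fate were followed as a list of 26 genes. In lin-35(n745) embryos 2 were higher (7.69%, where 6.23% of all genes were) and 1 lower (3.85%, where 4.12% were). At L1 4 were higher (15.4%, against 8.72%) and 3 lower (11.5%, against 6.81%), or 3 and 3 without replicate 1 of N2 L1. At L4 3 were higher and 3 lower (11.5% each, against 8.24% and 8.11%). At L4 fog-3, a Tob protein that directs germ cells to the sperm fate, was lower (-0.48, adjusted p = 0.00577), and fog-1, a CPEB protein of the same step, was higher (0.29, adjusted p = 0.0375). fog-3 read 8.92, 8.69 and 8.68 in N2 and 8.49, 8.11 and 8.25 in the mutant, without overlap. fog-2 (-0.46) and daz-1 (-0.53), 2 genes of RNA regulation in the germline, were also lower. The CPEB gene cpb-1 (0.96 in embryos, 2.05 in L1 larvae and 0.44 in L4 larvae) and rnp-8 (0.87, 2.73 and 0.79), which encodes a partner of the poly(A) polymerase GLD-2, were higher at each stage. fem-3, which promotes male fate, was called higher at L1 (0.49) and not at the other stages, and tra-1, the terminal factor of sex determination, was not called at any stage.

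Other genes made in sperm or the male tract were measured beside these. Of 23, 20 were higher at N2 L4 than at L1 and 0 lower, with a median of 1.89, so that 87.0% were higher, where 22.7% of all genes were. Between the strains 2 were higher (8.7%, where 6.23% of all genes were) and 0 lower in embryos. At L1 2 were higher and 2 lower (8.7% each, against 8.72% and 6.81%), or 1 and 1 without replicate 1 of N2 L1. At L4 1 was higher (4.35%, against 8.24%) and 5 lower (21.7%, against 8.11%). The 5 lower ones at L4 were smz-1 (-0.71), zipt-7.1 (-0.49), ssq-3 (-0.48), smz-2 (-0.48) and gskl-2 (-0.36). smz-1 and smz-2 encode PDZ-domain proteins of sperm meiotic chromosomes, zipt-7.1 a zinc transporter of sperm activation and gskl-2 a kinase of the GSK3 type. smz-1 read 8.81, 8.62 and 8.91 in N2 L4 and 8.11, 7.75 and 8.35 in lin-35(n745), without overlap. The Argonaute genes alg-3 (0.00) and alg-4 (-0.10), which act in spermatogenesis, were not called at L4.

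The largest strain difference of that list was in try-5, which encodes a protease of male seminal fluid that activates sperm. It was higher in lin-35(n745) by 1.77 in embryos, 3.10 at L1 and 3.27 at L4. At L4 the arrays read 4.14, 3.82 and 4.52 in N2 and 7.41, 7.33 and 7.57 in the mutant. It was not called between L1 and L4 in N2 (-0.22, adjusted p = 0.266), and the mutant arrays were above all N2 arrays at each of the 3 stages.

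Genes that receive the major sperm protein signal in the oocyte and sheath formed a list of 18. In embryos 2 were higher (11.1%, where 6.23% of all genes were) and 1 lower (5.56%, where 4.12% were). At L1 3 were higher and 3 lower (16.7% each, against 8.72% and 6.81%), or 3 and 4 without replicate 1 of N2 L1. At L4 2 were higher (11.1%, against 8.24%) and 1 lower (5.56%, against 8.11%). The receptor gene vab-1, an Eph receptor, was not called at any stage (0.05 at L4). The gap junction genes inx-22 and inx-14, whose products join sheath and oocyte, differed in direction at L4, with 2.90 and -0.54. inx-22 was higher by 5.17 at L1. oma-1, which acts in oocyte maturation, was lower at L1 (-0.47), the difference of oma-2 was -0.51 (adjusted p = 0.0525), and the yolk receptor gene rme-2 was higher at L1 (0.51).

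Other groups were read at L4 beside the 7 lower genes, where 8.24% of all genes were higher and 8.11% lower. Of the 6 adult-onset genes 5 were lower in lin-35(n745) (83.3%), among them vit-4 (-2.35) and the adult cuticle collagen col-19 (-1.35). Of the 22 oocyte genes 2 were higher (9.09%, close to the share of all genes) and 0 lower. Their array medians were 8.18 to 8.26 in N2 and 8.05 to 8.14 in the mutant. Of the 18 germline genes 8 were higher (44.4%) and 2 lower (11.1%), with medians of 8.62 to 8.70 in N2 and 9.12 to 9.18 in the mutant. The vitellogenin medians were 7.40 to 7.85 in N2 and 5.58 to 5.71 in the mutant. Their part in the sperm gene differences was not tested.

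Over the 6 group means, each centred on its own mean, the genes outside the set most like the median msp course were F58A6.9, E01G4.6, col-49, bli-2, col-38, Y59H11AM.1, D1086.3, col-138, C04F12.7 and lep-5. Their root mean square distances from that course ran from 0.125 to 0.564 on the log2 scale. The msp genes themselves had a median distance of 0.399, the ssp genes 1.93, the spe genes 2.48 and all genes 2.79. F58A6.9, the nearest, had N2 means of 3.84 (embryo), 5.03 (L1) and 10.33 (L4), with lin-35(n745) means of 3.88, 4.57 and 10.25. Among the 10 were 4 cuticle collagen genes, col-49, bli-2, col-38 and col-138.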

How the data were processed

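RNA of whole worms was hybridised to Affymetrix arrays, 18 in 6 groups of 3. Per the submitters' processing notes the authors summarised probe sets with RMA, which gives 1 value for each array. Its version and settings, and whether all stages were normalized together, are not given in the sources used. The deposited values were read as log2, since they run from 2.55 to 15.02, but no label states the base. The 75th percentile was 8.48 to 8.57 on the embryo arrays and 8.12 to 8.26 on the others. Precision is limited by the number of arrays.

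Of 22625 probe sets 77 controls were left out. Group means were fitted to the other 22548 with limma 3.58.1 in R 4.3.3 (12 residual and 7.66 prior degrees of freedom), two-sided, with Benjamini-Hochberg adjustment over all probe sets per contrast and a threshold of 0.05. Procedures were tested on simulated data. Errors are SE of the fit. Of the probe sets 20766 name 1 gene, 887 several and 895 none; all 65 genes matched RefSeq's gene table (assembly WBcel235), which served for names, chromosomes and neighbours. No probe or protein sequence was used here.

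The genes, the 6 gene lists and the tests were chosen with earlier results of these data known. Named with values are called genes (up to 10 per direction), the 5 highest and lowest msp and spe genes by N2 change from L1 to L4, and genes picked for their role; msp-59, msp-53 and the genes lost to a left-out array were named after their values were seen.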

Additional observations from a re-analysis of the deposited data

Results flagged for a closer look

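Each gene given here had a strain difference, lin-35(n745) minus N2, that itself differed between stages by limma's interaction test (adjusted p under 0.05). All arrays were used unless stated. Of the gene lists, those of sperm fate regulators, other sperm-made genes and adult-onset genes are covered gene by gene. The values are log2 differences of differences. At L1 against embryos the strain difference was lower for msp-19 (-1.27), msp-78 (-1.21) and msd-2 (-0.84), and among the genes of these lists for vit-4 (-1.83), daz-1 (-0.74) and swm-1 (-0.69). It was higher for rnp-8 (1.86), try-5 (1.32), cpb-1 (1.09) and mog-1 (0.56). Without replicate 1 of N2 L1, the array that stood apart, vit-4 (adjusted p = 0.0512) and swm-1 (0.0974) lost this call. In the lists covered, vit-5 (-0.955, adjusted p = 0.0231), vit-2 (-0.67, 0.0381) and lip-1 (-0.61, 0.0422) gained it. The values without that array were -1.06 for msp-19, -0.80 for msp-78 and -0.79 for msd-2. With all arrays, 10 of the 18 germline genes were higher and 0 lower (55.6%, where 5.22% of all genes were higher). Values there were larger, such as 4.17 for him-3.

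At L4 against L1 it was higher for msp-19 (1.54), msp-78 (1.26), msp-55 (1.22), msp-36 (1.08), msp-53 (1.00) and msd-2 (0.94), and for lip-1 (0.74). It was lower for spe-44 (-1.16), rnp-8 (-1.95), cpb-1 (-1.61), col-19 (-0.87), smz-1 (-0.84), zipt-7.1 (-0.65) and mog-1 (-0.50). Without the same array msp-53 (adjusted p = 0.104) and mog-1 (0.0619) lost this call. In the lists covered, vit-5 (-1.37, adjusted p = 0.00226), vit-4 (-1.20, 0.0357), vit-2 (-0.87, 0.00973) and vit-6 (-0.82, 0.0113) gained it. With all arrays, 8 of the 18 germline genes were lower and 0 higher (44.4%, where 3.72% of all genes were lower), with -3.22 for him-3.

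At L4 against embryos it was lower for spe-44 (-0.91), ssp-16 (-0.77), fog-3 (-0.60), vit-5 (-2.32), vit-4 (-2.27), vit-2 (-1.54), col-19 (-1.39) and vit-6 (-1.19), and higher for try-5 (1.50). Of the 18 germline genes 2 were higher (11.1%, where 4.14% of all genes were) and 3 lower (16.7%, where 4.18% were).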

How the results depend on the processing

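No called difference changed direction under the alternatives run. Uncalled ones did: on the second probe sets, msp-32 went from 0.04 to -0.11 in embryos and spe-55 from -0.32 to 0.05 at L1. Counts of the 65 genes called lower at L1 (12, of them 9 msp genes) became 21 and 14 with arrays centred on their medians and 3 and 1 in a fit to the compared groups alone, which called 0 higher. At L4 the 7 lower genes became 4 after a filter on dim probe sets, which leaves 41 of the 65 genes, and the fit to the compared groups called 4 higher. Embryo to L1 gave 38 higher and 11 lower genes in N2 under quantile normalization, and 26 higher and 7 lower in lin-35(n745). Under the dim filter the same step gave 23 higher and 3 lower in lin-35(n745). For L4 against L1, 3 genes became higher in the fit to the compared groups. For L4 against embryos, 4 were lower under quantile normalization and 2 higher in the fit to the compared groups. The causes were not tested, apart from the fewer genes and arrays that the dim filter and the smaller fits hold.

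Leaving out 1 array at a time gave 7 to 17 lower and 0 to 1 higher genes at L1 (4 to 15 lower msp genes), and 2 to 7 lower and 0 to 1 higher at L4. The interactions gave 2 to 7 lower genes for L1 against embryos, 3 to 11 higher and 1 to 2 lower for L4 against L1, and 1 to 2 lower for L4 against embryos.

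Replicate numbers did not pair the samples throughout: between the strains same-numbered arrays correlated at -0.05 to 0.27 in their deviations from the group means. The same-numbered array was the best match in some cases (L4 replicate 1, 0.27 against -0.05) and not in others (L4 replicate 3, 0.06 against 0.18). Between L1 and L4 of lin-35(n745) it was 0.31 against 0.03 for replicate 1 and -0.04 against 0.16 for replicate 3. A partial pairing cannot be told from these values. With the replicate number as a block, 1 gene was lower for L4 against embryos in place of 2, and the other counts stayed close. The block ended the calls of ssp-10 at L4 (adjusted p = 0.0502), msp-33 at L1 (0.0609), msp-53 for L4 against L1 (0.0999) and ssp-16 for L4 against embryos (0.051), and gave one to gsp-4 at L1 (0.0407) and to spe-6 in lin-35(n745) from embryo to L1 (0.0357). RMA gives no detection call, so dim probe sets limit what can be said of low spe genes and of msp genes before L4.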
